A study of Homo sapiens with 2 samples.

Results

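The mitosis genes are 41 protein-coding genes that were picked by symbol for their part in mitosis, out of 58735 genes in the deposited expression table. All 41 were found, each in 1 row, and 40 of them reached 1 FPKM in at least 1 library. FPKM are sequenced fragments scaled to the length of the gene and to the size of the library, so that levels can be compared between genes of different length.

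Cells enter mitosis when CDK1, a protein kinase, is bound by its A- and B-type cyclins and freed of inhibitory phosphates by the CDC25 phosphatases. Aurora and Polo-like kinases then build the spindle, the NDC80 complex ties kinetochores to microtubules, and the spindle checkpoint holds back the anaphase-promoting complex until every chromosome is attached. Most of these genes are transcribed in a wave late in the cell cycle, under FOXM1 and MYB-MuvB, so their RNA level in a culture depends on how many cells are dividing as well as on the RNA per cell.

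SF-539 is a human glioblastoma cell line, labelled as epithelial glioma cells of the brain, passages 15-18. Both groups carried a pGIPZ lentivirus, were grown in DMEM with 10% serum and were selected with puromycin. The shControl group expressed a control hairpin, and the shFKBP9 group a hairpin against FKBP9, a peptidyl-prolyl isomerase of the endoplasmic reticulum. The cells were selected as stable clones; the number of clones in a library and the hairpin it carried, out of several made against FKBP9, were not given in the sources used here. Each group was 1 library, so nothing was tested between the conditions, and every difference below compares the 2 libraries, with intervals that cover counting error only. In bulk RNA, fewer dividing cells and less RNA per cell cannot be told apart.

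Depth was near equal, with 18116873 fragments on genes in shControl and 17158514 in shFKBP9. FKBP9 stood at 49.8 FPKM (4659 fragments) in shControl and 4.68 FPKM (415 fragments) in shFKBP9, which left 9.39% of the control level. The glial and neural markers were mostly near 0 in both libraries, with GFAP at 0.196 and 0.139 FPKM, AQP4 and OLIG1 without a fragment, and 1 fragment of S100B in all. EGFR made up most of that list's summed level of 17.5 and 16.9 FPKM. The 8 mesenchymal markers summed to 2356 and 2748 FPKM, led by COL1A1. The 7 epithelial markers summed to 2.07 and 1.85 FPKM, with CDH1 at 0 and 1 fragments, so the epithelial label was not matched by its defining markers. The 6 blood and endothelial markers summed to 0.563 and 0.861 FPKM, with PTPRC and CD3E without a fragment.

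The mitosis genes were well expressed in both libraries. Their median was 24.2 FPKM in shControl and 24.9 FPKM in shFKBP9, against 7.37 and 7.27 FPKM for the 10346 protein-coding genes that reached 1 FPKM in either library. The 41 genes together took 0.525% of the fragments in shControl and 0.544% in shFKBP9. That is a log2 ratio of 0.054 with a 95% counting interval of 0.041 to 0.067, so the summed share was slightly higher in the library with the hairpin against FKBP9.

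**Figure D1:**
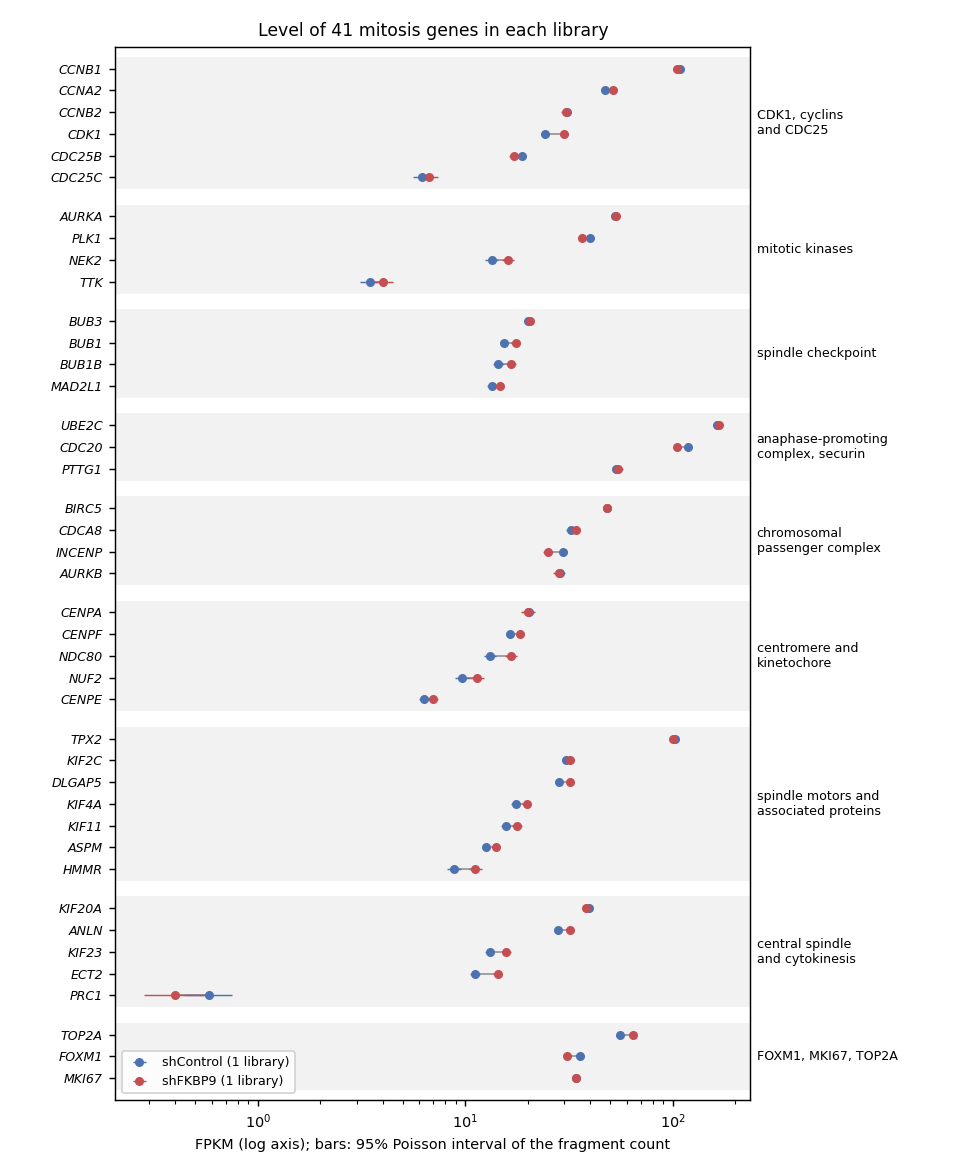
FPKM of the 41 mitosis genes on a log axis, grouped by role, with 1 point per library (blue shControl, red shFKBP9) and bars for the 95% Poisson interval of the fragment count. Levels ran from 164 and 166 FPKM for UBE2C down to 0.580 and 0.401 FPKM for PRC1, and the points of each gene lie close together.

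No mitosis gene passed a 2-fold difference in either direction. Of the 12741 genes of every type at 1 FPKM in either library, 2.02% were past 2-fold higher and 2.19% past 2-fold lower. Of the 10346 protein-coding genes among them, only 22 were past 2-fold higher and 20 past 2-fold lower. At 1.2-fold, 5 of the 40 members that reached 1 FPKM were higher in shFKBP9, namely ECT2, NDC80, HMMR, CDK1 and KIF23, beside 13.1% of the 12741 genes. None was past 1.2-fold lower, beside 14.9% of the 12741 genes. Of the 10346 protein-coding genes, 943 were past 1.2-fold higher and 1123 past 1.2-fold lower. The log2 ratios of shFKBP9 over shControl, computed on FPKM with 0.1 added, had a median of 0.11 over the 41 members and ran from -0.44 (PRC1) to 0.36 (ECT2). The median of all protein-coding genes at 1 FPKM was -0.018. By sign, 27 members were higher and 14 lower in the shFKBP9 library. Over the 8 members with neither a copy nor an overlapping gene in the table the median was -0.024, on the other side of 0.

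For 19 of the 41 members the counting interval of the ratio lay wholly above 0, and for 5 wholly below. Among all 17105 genes with at least 10 fragments, 13.8% had an interval above 0 and 16.9% below. Among the 10627 protein-coding genes whose fragment totals fell within the range of the members, 18.4% lay above and 22.7% below. These intervals leave out the variation between cultures, which a single library per condition cannot show. Most members lay well inside the spread of other genes: of 8335 protein-coding genes with at least 500 fragments, the central 95% ran from -0.38 to 0.38, and PRC1, with 96 fragments in all, was the only member outside it. Adjusted ratios have the median ratio of protein-coding genes of like transcript GC content subtracted. They are given beside the groups of genes, as medians or for single genes.

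**Figure D2:**
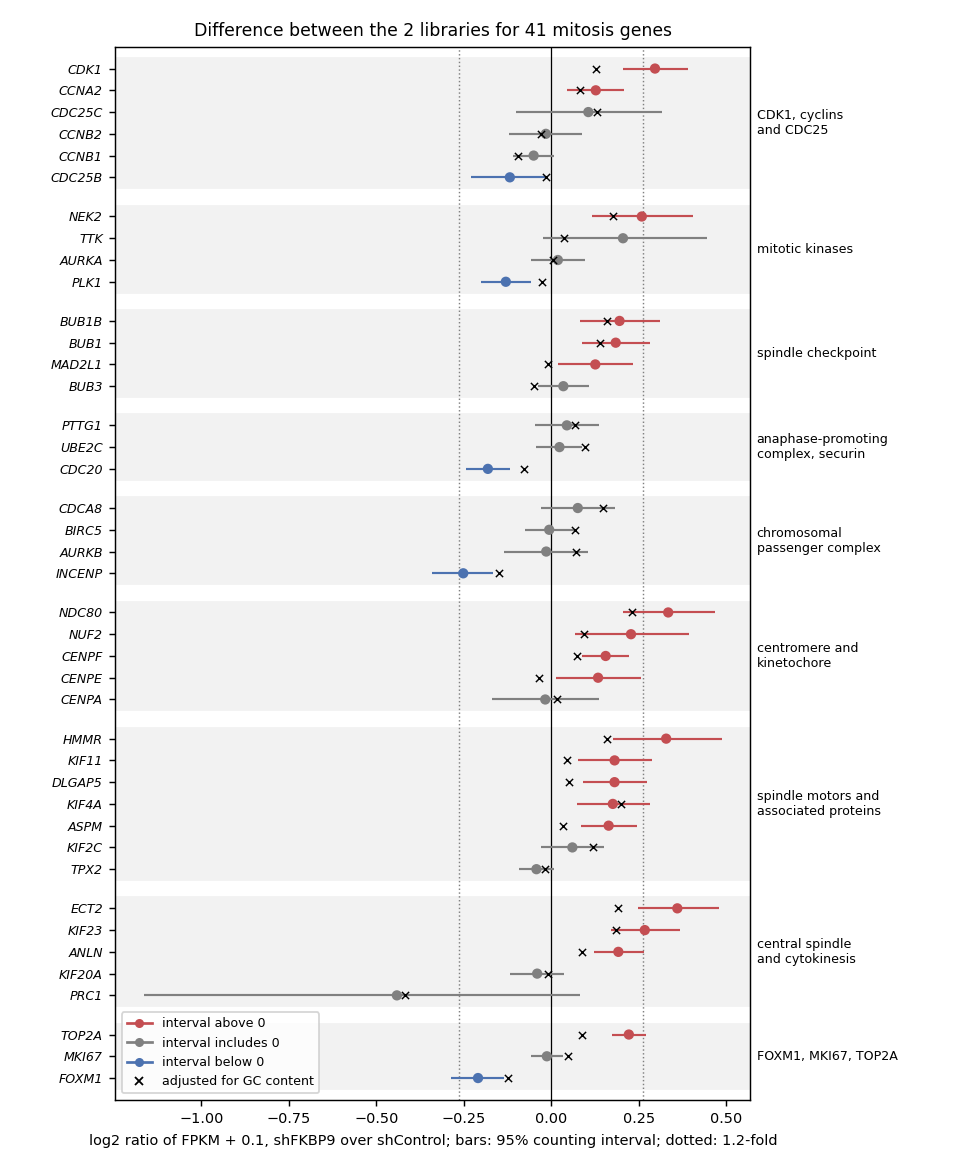
Log2 ratio of shFKBP9 over shControl for the 41 mitosis genes by role, with 95% counting intervals, coloured by the side of 0 on which the interval lies; dotted lines mark 1.2-fold and crosses the ratio after adjustment for GC content. The 19 intervals above 0 belong to genes of 7 of the 9 roles, and the 5 below 0 to CDC25B, PLK1, CDC20, INCENP and FOXM1.

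CDK1, its cyclins and its activating phosphatases did not share a direction. CDK1 was at 24.2 FPKM in shControl and 29.8 FPKM in shFKBP9, a log2 ratio of 0.30 (0.20 to 0.39), and was 22.9% higher. Cyclin A2, which pairs with CDK1 in late G2, was also higher, CCNA2 being at 47.1 and 51.5 FPKM with a ratio of 0.13 (0.046 to 0.21). The B-type cyclins, the main partners of CDK1 in mitosis, were nearly level. CCNB1 was one of the most abundant members, at 108 and 104 FPKM, with a ratio of -0.051 (-0.11 to 0.0073). CCNB2 was at 30.8 and 30.4 FPKM. Of the phosphatases, CDC25B was at 18.7 and 17.3 FPKM, 7.93% lower, with an interval of -0.23 to -0.010 that ended close to 0. CDC25C was at 6.19 and 6.67 FPKM, and its interval of -0.10 to 0.32 included 0. The median ratio of these 6 genes was 0.045. After adjustment for GC content CDK1 was at 0.13, CDC25B at -0.016 with an interval that included 0, and CCNB1 at -0.095 with an interval below 0. The adjusted median was 0.034.

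Among the mitotic kinases the order of levels was AURKA, PLK1, NEK2 and TTK in both libraries. AURKA, the kinase of the spindle poles, was at 52.5 and 53.2 FPKM, and its interval of -0.058 to 0.096 included 0. PLK1, which acts from mitotic entry to cytokinesis, was at 39.9 and 36.5 FPKM, a ratio of -0.13 (-0.20 to -0.059). NEK2, a kinase that helps centrosomes to separate, lay on the other side, at 13.4 and 16.1 FPKM with a ratio of 0.26 (0.12 to 0.40). TTK, the checkpoint kinase also called MPS1, was rare at 3.49 and 4.03 FPKM, and its ratio of 0.20 had an interval of -0.024 to 0.45. The intervals of PLK1 and NEK2 did not overlap. After adjustment for GC content they did, with PLK1 at -0.026 (-0.097 to 0.045) and NEK2 at 0.18 (0.034 to 0.32). AURKA was then at 0.0045 and TTK at 0.036, and the median of these 4 genes went from 0.11 to 0.020.

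The spindle checkpoint genes were alike in level, and all had ratios above 0. BUB1, a kinase that recruits other checkpoint proteins to kinetochores, was at 15.4 and 17.5 FPKM, a ratio of 0.18 (0.089 to 0.28). BUB1B, which encodes the checkpoint effector BUBR1, was at 14.4 and 16.6 FPKM, a ratio of 0.19 (0.080 to 0.31). MAD2L1, whose protein captures CDC20, was at 13.4 and 14.7 FPKM, a ratio of 0.13 (0.019 to 0.23). BUB3, their common partner, was nearly level at 20.02 and 20.5 FPKM, with an interval of -0.040 to 0.11. Of 4 checkpoint genes, 3 thus had intervals above 0, beside 18.4% of protein-coding genes of like fragment totals. The share was 41.4% below 40% GC and 27.6% from 40% to 45% GC, where these genes lie. The shares by GC class were not matched for fragment totals. After adjustment for GC content the direction was no longer shared, with BUB1 at 0.14, BUB1B at 0.16, MAD2L1 at -0.0093 and BUB3 at -0.048, and the median went from 0.15 to 0.065.

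Of the genes that act on the other side of that checkpoint, CDC20 was lower. CDC20, the activator of the anaphase-promoting complex that the checkpoint restrains, was at 119 and 105 FPKM, 11.8% lower in shFKBP9 with a ratio of -0.18 (-0.25 to -0.12). UBE2C, the ubiquitin-conjugating enzyme of the same complex, was the most abundant member at 164 and 166 FPKM, above 98.1% of the protein-coding genes at 1 FPKM. PTTG1, securin, the inhibitor of separase that the complex destroys, was at 53.1 and 54.8 FPKM. Both UBE2C and PTTG1 had intervals that included 0. The interval of CDC20 overlapped with neither of theirs, which began at -0.043 and -0.048. After adjustment for GC content CDC20 was at -0.077 (-0.14 to -0.014) and overlapped with PTTG1, whose interval then began at -0.024, but not with UBE2C, which began at 0.030. The group medians of the ratio were 0.023 here and 0.15 for the checkpoint genes, and 0.068 and 0.065 after the adjustment.

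In the chromosomal passenger complex, INCENP stood apart from its partners. INCENP, the scaffold that binds and activates Aurora B, was at 29.7 and 24.9 FPKM, 16.1% lower with a ratio of -0.25 (-0.34 to -0.17). The kinase itself, AURKB, was at 28.5 and 28.2 FPKM. Survivin, BIRC5, was at 48.5 and 48.3 FPKM, and borealin, CDCA8, at 32.3 and 34.1 FPKM. The lower bounds for AURKB, BIRC5 and CDCA8 were -0.14, -0.077 and -0.030, all above the upper bound of INCENP. This held after adjustment for GC content, when INCENP was at -0.15 with an upper bound of -0.062 and the lowest bound of its partners was that of AURKB at -0.050. AURKB and BIRC5 then changed sign, to 0.071 and 0.066, CDCA8 was at 0.15 with an interval above 0, and the median of these 4 genes went from -0.010 to 0.068. INCENP was the lowest ratio among members with at least 100 fragments.

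Of the 5 centromere and kinetochore genes among the members, 4 had intervals above 0, beside 18.4% of protein-coding genes of like fragment totals. The shares in their GC classes, not matched for fragment totals, were the same 41.4% and 27.6%. From 45% to 50% GC, where CENPA lies, the share was 14.0%. CENPA, the histone H3 variant that marks centromeres, was level at 20.2 and 20.003 FPKM. NDC80, the microtubule-binding subunit that names its complex, was at 13.2 and 16.6 FPKM, 26.2% higher with a ratio of 0.33 (0.20 to 0.47). NUF2, its partner in the complex, was at 9.69 and 11.4 FPKM, a ratio of 0.23 (0.067 to 0.39). These intervals overlapped, and both lay above 0. CENPF, a large kinetochore protein of late G2, was at 16.5 and 18.4 FPKM (0.089 to 0.22). CENPE, a kinetochore motor, was at 6.33 and 6.96 FPKM, with a lower bound of 0.014. Their median ratio was 0.16, and 0.072 after adjustment for GC content, when NDC80 was at 0.23 (0.10 to 0.36) and the intervals of NUF2 and CENPE, the latter at -0.035, included 0.

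Spindle motors and the proteins around them had a median ratio of 0.18, and of 0.049 after adjustment for GC content. HMMR, a spindle-associated protein, was at 8.87 and 11.2 FPKM, 25.8% higher with a ratio of 0.33 (0.18 to 0.49). KIF11, the motor that pushes spindle poles apart, was at 15.6 and 17.7 FPKM, KIF4A, a chromosome motor, at 17.5 and 19.8 FPKM, and DLGAP5, a microtubule-stabilising protein, at 28.3 and 32.1 FPKM. These genes each had a ratio of 0.18 with a lower bound between 0.072 and 0.090. ASPM, a spindle pole protein, was at 12.6 and 14.1 FPKM with a ratio of 0.16 (0.085 to 0.24). KIF2C, a microtubule-depolymerising kinesin, was at 30.5 and 31.8 FPKM, and TPX2, the activator of Aurora A, at 103 and 100.1 FPKM. For KIF2C and TPX2 the intervals included 0. After the adjustment HMMR was at 0.16 (0.0081 to 0.32), the intervals of KIF11, DLGAP5 and ASPM included 0, that of KIF2C lay above 0 (0.029 to 0.21), and KIF4A was at 0.20.

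The group of the central spindle and cytokinesis held both ends of the range. ECT2, the exchange factor that switches on RhoA at the cleavage furrow, was at 11.1 and 14.3 FPKM, 28.6% higher with a ratio of 0.36 (0.25 to 0.48). KIF23, a motor of the centralspindlin complex, was at 13.1 and 15.8 FPKM, a ratio of 0.27 (0.17 to 0.37). Anillin, ANLN, was at 28.1 and 32.0 FPKM, a ratio of 0.19 (0.12 to 0.26). KIF20A was level at 39.3 and 38.2 FPKM. PRC1, the microtubule bundler of the central spindle, was listed at 0.580 and 0.401 FPKM, from 58 and 38 fragments, and its ratio of -0.44 had an interval of -1.16 to 0.081. The median ratio of these 5 genes was 0.19, and 0.088 after adjustment for GC content.

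The level of PRC1 was far under that of every other member, the next lowest being TTK at 3.49 and 4.03 FPKM. By GENCODE release 44, 57.6% of the exonic bases of PRC1 also belong to AC068831.7, a read-through gene on the same strand (hg38 chromosome 15, 90966190 to 91022566 in the deposited table), and 61.8% to this or another gene of the table. AC068831.7 held 138 and 110 fragments. How fragments that lie on both genes were counted was not given in the sources used here, so the listed level of PRC1 is uncertain. Summed, the rows held 196 and 148 fragments, a ratio of -0.33 (-0.65 to -0.013).

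FOXM1, the transcription factor of the late cell cycle, and MKI67 and TOP2A, both used as markers of dividing cells, differed from each other. FOXM1 was at 35.8 and 31.0 FPKM, 13.6% lower with a ratio of -0.21 (-0.29 to -0.13). MKI67, which encodes the Ki-67 antigen, was at 34.3 FPKM in shControl and 34.04 FPKM in shFKBP9. From 15450 fragments, the most of any member, its ratio was -0.013 (-0.059 to 0.033). TOP2A, the topoisomerase that untangles sister chromatids, was at 55.5 and 64.7 FPKM, 16.6% higher with a ratio of 0.22 (0.17 to 0.27). The intervals of these genes did not overlap one another. After adjustment for GC content those of MKI67 at 0.046 and TOP2A at 0.087 overlapped, and FOXM1 at -0.12 stayed apart from both.

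Other genes shared sequence or place with many members. The table held 41 copies, mostly pseudogenes, of 19 members, and no copy had more than 20 fragments in a library. Adding the fragments of the copies left every member within its own interval. For 14 members some exonic bases also lay in an exon of another gene of the table. Outside PRC1 the largest shares were 15.9% for FOXM1 with ITFG2, 12.8% for PLK1 with opposite-strand genes and 10.2% for BUB1B with the same-strand PAK6 and BUB1B-PAK6. The strand setting of the counting was not given in the sources used here, so fragments of genes on opposite strands may not have been told apart. Over the 27 members that share no exon, a subset chosen after seeing the data, the median ratio was 0.076.

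The ratios followed the base composition of the transcripts. The GC content of the canonical transcript in GENCODE release 44 ran from 35.1% (CENPE) to 59.1% (CDC25B) over the members. Over the 40 members with at least 100 fragments, Pearson's r between ratio and GC content was -0.84 and Spearman's rho -0.80, and over all 41 members -0.76 and -0.79. These are correlations across genes of the same 2 libraries, which are not independent replicates. The ratios also ran against level, with r of -0.52 and rho of -0.60 for the log2 of the mean FPKM over the same 40 members. The 5 members with intervals below 0 had GC contents of 55.7% to 59.1%, while 18 of the 19 with intervals above 0 were under 45%, the exception being KIF4A at 46.2%.

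The same gradient ran through the rest of the transcriptome. Over 10329 protein-coding genes at 1 FPKM with a known GC content, r was -0.37 and rho -0.45. Below 40% GC, 13 members had a median ratio of 0.20 and 1757 other protein-coding genes 0.14, with 92.3% of the members and 41.4% of the others showing an interval above 0. From 40% to 45% the medians were 0.16 for 9 members and 0.054 for 2177 others. From 45% to 50% they were -0.014 for 8 members and -0.036 for 1697 others. At 50% and over, 10 members had a median of -0.067 and 4658 others -0.10, with 50% of the members and 38.6% of the others showing an interval below 0. In each class the median of the members thus stood above that of the other genes. The shares of intervals were not matched for fragment totals, on which the width of an interval depends. These totals began at 606 for the members with at least 100 fragments and at 6 for protein-coding genes at 1 FPKM. The parts of GC content and of level in the members' differences were not tested. With 1 library per condition, a difference between the libraries that runs with GC content cannot be told apart from an effect of the hairpin against FKBP9.

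With the adjustment for GC content, the members' median ratio was 0.066 instead of 0.11, and 28 were above and 13 below 0. After this adjustment no member was past 1.2-fold in either direction among the 40 at 1 FPKM, beside 7.48% of protein-coding genes that were higher and 7.42% that were lower. The highest adjusted ratios were those of NDC80 (0.23), KIF4A (0.20), ECT2 (0.19) and KIF23 (0.18), and the lowest with at least 100 fragments were INCENP (-0.15), FOXM1 (-0.12) and CCNB1 (-0.095). With the intervals moved by the same amounts, 13 of the 19 members above 0 and 3 of the 5 below 0 kept their side. In all, 17 members then lay above 0 and 4 below, beside 17% and 16.1% of protein-coding genes of like fragment totals. ASPM, CENPE, DLGAP5, KIF11, MAD2L1, NUF2, CDC25B and PLK1 came to include 0, while CDCA8, KIF2C, MKI67 and UBE2C came to lie above it and CCNB1 below. The adjusted ratios of the 40 members with at least 100 fragments still ran against GC content, with r of -0.40 and rho of -0.30.

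Other cell cycle lists were set beside the members. The 78 further mitosis genes, which hold kinetochore, spindle and condensin genes among others, had a median ratio of 0.062, or 0.038 after adjustment for GC content. By unadjusted ratio 46 were higher and 32 lower, with 29 intervals above 0 and 13 below. The counts of this and the following lists stand beside the 18.4% above and 22.7% below among protein-coding genes of like fragment totals. At their top stood CKAP2 (9.74 and 13.2 FPKM, ratio 0.43, adjusted 0.26), CKAP2L (7.48 and 9.87 FPKM, 0.39, adjusted 0.26) and MASTL, the kinase also called Greatwall (3.88 and 5.04 FPKM, 0.37, adjusted 0.29). At their bottom stood PIMREG (20.3 and 13.4 FPKM, -0.59), CENPO (7.56 and 5.96 FPKM, -0.34, adjusted -0.25) and CENPH (14.3 and 11.8 FPKM, -0.27, adjusted -0.31). PIMREG differed more than any member counted from at least 100 fragments, and its adjusted ratio was -0.51. The 15 core subunits and co-activators of the anaphase-promoting complex had a median of 0.024, or 0.034 after the adjustment, with 3 unadjusted intervals above 0 and 3 below. The highest ratios were those of CDC27 (13.1 and 15.7 FPKM, 0.26, adjusted 0.091), ANAPC13 (17.5 and 20.3 FPKM, 0.22, adjusted 0.084) and ANAPC10 (0.916 and 1.07 FPKM, 0.20, adjusted 0.034). The unadjusted interval of ANAPC10, -0.25 to 0.69, included 0. The intervals below 0 were those of FZR1 (21.01 and 18.6 FPKM, -0.18, adjusted -0.058), ANAPC2 (15.5 and 13.7 FPKM, -0.18, adjusted -0.061) and ANAPC1 (4.69 and 4.02 FPKM, -0.22, adjusted -0.23).

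The regulators of the late cell cycle genes were mixed as well. In the 12 genes of the DREAM and MYB-MuvB complexes the median was -0.023, or 0.020 over the 10 that reached 1 FPKM, with 3 intervals above 0 and 2 below. After adjustment for GC content these medians were -0.023 and 0.0072. MYBL2, the activator B-MYB, was at 93.9 and 78.7 FPKM (ratio -0.25), TFDP1, a partner of E2F factors, at 60.5 and 56.0 FPKM (-0.11, adjusted -0.087) and E2F5 at 0.745 and 0.688 FPKM (-0.10, adjusted -0.069). The interval of E2F5, -0.60 to 0.37, included 0. The MuvB subunits LIN9 (1.99 and 2.73 FPKM, 0.44) and LIN54 (2.64 and 3.51 FPKM, 0.40) and the pocket protein RBL1 (5.96 and 7.13 FPKM, 0.26) were higher. The adjusted ratios of LIN9, LIN54 and RBL1 were smaller, at 0.27, 0.27 and 0.15. Their transcripts had GC contents of 34.9%, 39.1% and 40.01%. FOXM1 and MYBL2, the activators of the late wave, were thus both lower in shFKBP9, and both have GC-rich transcripts, of 55.7% and 60.0%, with adjusted ratios of -0.12 and -0.13.

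Genes of the earlier cell cycle were mixed. The 45 DNA replication genes had a median ratio of -0.0055, with 2 intervals above 0 and 11 below, the latter near the 22.7% of like genes, and a median of -0.0094 after adjustment for GC content. RRM2, a subunit of ribonucleotide reductase, was at 26.6 and 34.2 FPKM (0.36, adjusted 0.32). CCNE2, cyclin E2, was at 1.47 and 2.49 FPKM (0.72, adjusted 0.55) and GINS3 at 2.30 and 2.76 FPKM (0.25, adjusted 0.28). The interval of GINS3, -0.011 to 0.53, included 0. POLD1, a DNA polymerase subunit, was at 20.3 and 16.7 FPKM (-0.28, adjusted -0.16). CHAF1B was at 7.67 and 6.40 FPKM (-0.26, adjusted -0.20) and TYMS, thymidylate synthase, at 25.2 and 21.95 FPKM (-0.20, adjusted -0.14). Of the 13 G1 cyclins, kinases and inhibitors only 8 reached 1 FPKM, and these had a median of 0.051, or -0.016 after adjustment for GC content, with 2 intervals above 0 and 2 below. CCND1, cyclin D1, was at 49.99 and 67.7 FPKM (0.44, adjusted 0.51), and the inhibitor CDKN1A at 92.1 and 98.6 FPKM (0.099, adjusted 0.20). RB1 was at 4.73 and 4.97 FPKM (0.070, adjusted -0.061) and the inhibitor CDKN1B at 25.3 and 25.1 FPKM (-0.013, adjusted 0.011). The unadjusted intervals of RB1 and CDKN1B included 0. CDK2 was at 17.6 and 15.3 FPKM (-0.20, adjusted -0.17) and CCND3 at 27.3 and 23.5 FPKM (-0.22, adjusted -0.11). The medians of the members and of these lists were not tested against each other.

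**Figure D3:**
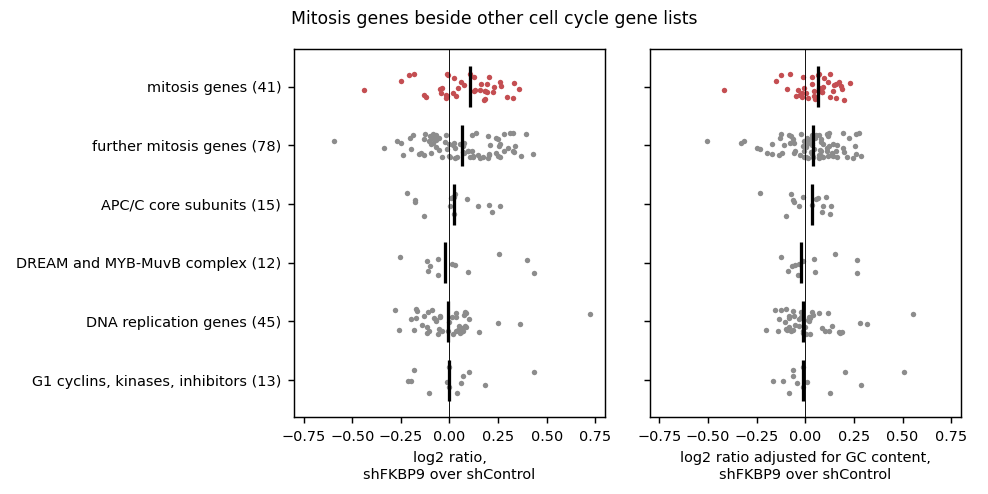
Log2 ratio of shFKBP9 over shControl for each gene of the mitosis genes (red) and of other cell cycle lists (grey, list size in parentheses), with the list median as a black bar, before (left) and after (right) adjustment for GC content; the vertical scatter carries no value and all genes of a list are drawn, those under 1 FPKM included. The member median was 0.11 before and 0.066 after the adjustment, and the DNA replication median was close to 0 in both.

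The promoters of the members share sequence features that the choice of genes did not use. The cell cycle homology region (CHR), bound by MuvB complexes, was searched as TTTGAA or TTCGAA, the CCAAT box, bound by NF-Y, as CCAAT, and the E2F site as TTTCCCGC, TTTCGCGC, TTTGCCGC or TTTGGCGC, on both strands. RefSeq promoter windows on GRCh38.p14, from 250 bases before to 50 after the start, were found for 34 members, and the window listed first was taken for the 6 genes with several. A CHR was found in 24 of the 34 windows (70.6%), against 16.6% of the first windows of all 27305 genes in the table. A CCAAT box was found in 26 (76.5%), against 35.7%, and an E2F site in 2, those of CDK1 and CENPA (5.88%, against 3.33%). TTK, BIRC5, FOXM1, BUB3, UBE2C, AURKA and TPX2 had no entry.

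Promoters with the same elements belonged to genes at both ends of the ratios. The 24 members with a match to the searched CHR letters had a median ratio of 0.18, and the 10 without such a match a median of 0.052. Other forms of the element were not searched. Their median GC contents were 41.2% and 46.0%, and their median adjusted ratios were 0.080 and 0.069. The 170 bases before the start are shown for the 3 members with the lowest and the 3 with the highest ratio among those with at least 100 fragments and a CHR in this stretch. Capitals mark each CHR and CCAAT box on either strand. The windows lie at chr11:62123841-62124010 for INCENP, chr1:43358811-43358980 for CDC20, chr16:23678719-23678888 for PLK1, chr10:60778161-60778330 for CDK1, chr5:163460462-163460631 for HMMR and chr3:172750556-172750725 for ECT2, all on the plus strand.
INCENP: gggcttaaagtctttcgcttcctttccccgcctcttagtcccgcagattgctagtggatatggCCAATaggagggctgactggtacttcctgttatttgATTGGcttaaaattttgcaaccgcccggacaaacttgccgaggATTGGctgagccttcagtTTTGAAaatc
CDC20: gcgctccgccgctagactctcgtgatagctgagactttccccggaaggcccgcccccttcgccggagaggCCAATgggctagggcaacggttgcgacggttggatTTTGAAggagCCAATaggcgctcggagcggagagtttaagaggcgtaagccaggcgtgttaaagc
PLK1: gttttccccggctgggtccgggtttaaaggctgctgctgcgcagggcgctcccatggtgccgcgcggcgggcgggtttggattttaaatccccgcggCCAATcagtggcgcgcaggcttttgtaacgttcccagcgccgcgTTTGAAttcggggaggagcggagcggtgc
CDK1: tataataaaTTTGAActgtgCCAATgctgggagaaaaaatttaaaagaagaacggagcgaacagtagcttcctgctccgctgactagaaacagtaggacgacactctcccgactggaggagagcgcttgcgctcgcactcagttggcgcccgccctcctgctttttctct
HMMR: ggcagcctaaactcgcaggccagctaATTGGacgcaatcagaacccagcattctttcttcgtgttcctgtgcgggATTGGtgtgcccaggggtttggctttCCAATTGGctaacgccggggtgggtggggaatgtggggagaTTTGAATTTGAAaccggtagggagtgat
ECT2: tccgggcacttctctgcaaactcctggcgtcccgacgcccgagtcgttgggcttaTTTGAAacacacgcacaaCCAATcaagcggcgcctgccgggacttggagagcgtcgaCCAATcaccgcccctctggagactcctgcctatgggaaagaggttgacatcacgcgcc
INCENP, CDC20 and PLK1 were all lower in shFKBP9, and CDK1, HMMR and ECT2 all higher. Their CHR in this stretch was a condition for being shown. Each also had at least 1 CCAAT box there. HMMR had 2 CHR copies in tandem. In PLK1, INCENP and HMMR a CHR began within 30 bases of the start, in CDC20 at 65, in ECT2 at 115 and in CDK1 at 161 bases before it. The matches are descriptions of letters in these windows, and binding was not measured.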

How the data were processed

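RNA of SF-539 cells with the control hairpin and with the hairpin against FKBP9 was sequenced, 1 library each, as paired-end reads. The authors aligned the reads to hg38 with HISAT2 (2.0.5), counted them per gene with featureCounts (1.5.0-p3) and deposited FPKM, which correct for gene length and library size. Fragments were recovered as FPKM times gene length over the smallest such product of a library. Every value came out whole within 0.01. On a gene of 1 kilobase, 1 fragment corresponds to 0.0552 FPKM in shControl and 0.0582 in shFKBP9.

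Log2 ratios were taken on FPKM with 0.1 added. Each ratio was given a 95% interval by the exact Clopper-Pearson method on its fragments, with scipy (1.17.1), and each level an exact Poisson interval. Fold counts used genes at 1 FPKM in either library. Nothing was tested between conditions, and the scripts were tested on simulated data. GC content came from canonical transcripts of GENCODE release 44, and the adjustment used the median ratio of expressed protein-coding genes in 20 bins of GC content. This adjustment, and the median over members that share no exon with another gene, were chosen after seeing the data.

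The members and lists were chosen with earlier results of these data known. All 41 members are named, with FKBP9, the marker genes, copies and overlapping genes of members and, from each other cell cycle list, the 3 highest and 3 lowest ratios among genes with at least 100 fragments together.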

Additional observations from a re-analysis of the deposited data

How the results depend on the processing

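Adding 1 or 0.01 FPKM instead of 0.1, scaling by the median ratio of expressed protein-coding genes, scaling by the 75th percentile and rescaling to TPM left the members' median between 0.089 and 0.12 and all 41 members within their counting intervals, and none passed 2-fold under any setting. The scalings amount to log2 shifts of 0.018, 0.0076 and -0.018 before the 0.1 is added. The number of intervals above 0 ranged from 17 to 19 and below 0 from 4 to 7 over the scalings, 99% intervals and the GC adjustment. Over the 8 members with neither a copy nor an overlapping gene in the table (BIRC5, CCNB1, CDC25B, CDK1, CENPE, INCENP, TPX2 and TTK) the median was -0.024, and the cause was not tested. The count past 1.2-fold lower was 1 with TPM (INCENP) and 1 with no minimum (PRC1), instead of 0. With the GC adjustment, added after seeing the data, the count past 1.2-fold higher was 0 instead of 5, and 7 members changed sign. MAD2L1, CENPE and BUB3 turned from above 0 to -0.0093, -0.035 and -0.048, and AURKB, BIRC5, CENPA and MKI67 from below to above 0. Beside MAD2L1 and CENPE, 17 members moved outside their intervals and 22 did not, and the medians of the spindle motor and cytokinesis groups went from 0.18 to 0.049 and from 0.19 to 0.088. With 1 FPKM added, the log2 ratio of FKBP9 was -3.16 instead of -3.38. No paired analysis was possible because each condition has 1 library, and for the same reason no library could be left out. The width of the members' intervals, divided by 2, ran from 0.046 (MKI67) to 0.62 (PRC1), with a median of 0.094, and the spread between cultures is unknown.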
